A study of Mus musculus with 12 samples.

Results

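Of the 12 arrays of this mouse microarray series, 8 hold the comparison described here: the 4 arrays labelled SSC and the 4 labelled Thy. SSC and Thy are names of osteoprogenitor populations, cells sorted from bone that can give rise to bone tissue. They were chosen by the population label alone, and each population has 2 arrays with JUN and 2 without. The remaining 4 arrays hold another population, labelled CSP and written BCSP in the design text, which is given beside the results for orientation. In the main model these arrays added to the estimate of the spread, and they also counted in the choice of genes and probe sets. In models with further terms or with an array left out they also enter the difference SSC minus Thy.

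Gene expression was measured on 1 array per sample, from total RNA of cells sorted by flow cytometry out of limb bones, skull cap, scapula, vertebrae and ribs. Every sample carries the label of JUN inducible mice on a regular diet, and JUN was induced in pups by doxycycline in the drinking water of the mother, with the sort after 2 days. The labels write -JUN for the other arm, which is read here as the arm without induction. The promoter that drives the transgene, the age of the pups, the sort gates and the genotype and doxycycline status of the arm without JUN were not stated in the labels.

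In published sorting schemes for the mouse skeleton, a skeletal stem cell stands at the top of a lineage tree, and a bone, cartilage and stroma progenitor and more restricted progenitors stand below it. Cells positive for Thy1 are among the restricted progenitors. These schemes separate the populations by surface proteins, among them Thy1 (CD90) and endoglin (CD105, gene Eng), after blood and endothelial cells have been gated out. A difference in Thy1 or Eng between SSC and Thy is therefore a check of the labels and no finding.

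The titles name 5 mice. By these numbers mice 3, 4 and 7 gave both an SSC and a Thy array, although for mice 3 and 7 the number alone joins a dated SSC title to an undated Thy title. Mouse 3b gave a Thy array and mouse 10 an SSC array. The arrays of an arm are numbered here by the labels' replicate number: SSC replicates 1 and 3 without JUN, from mice 3 and 10, SSC replicates 1 and 2 with JUN, from mice 4 and 7, Thy replicates 1 and 2 without JUN, from mice 3 and 3b, and Thy replicates 1 and 2 with JUN, from mice 4 and 7. Wherever 4 values of a population follow each other, they stand in that order. These measures set arrays apart before any gene is read. To begin with, 3 of the 4 SSC titles carry a date and no other title does, the exception being SSC replicate 1 with JUN. The poly-A controls, bacterial transcripts added to a sample to follow labelling, averaged 8.47, 9.11, 11.24 and 9.95 on the log2 scale in SSC and 11.33 to 12.28 in Thy, without overlap. In addition, SSC replicate 1 with JUN had the lowest mean correlation with the other SSC arrays (0.936, against 0.950 to 0.966), and Thy replicate 1 with JUN the lowest with the other Thy arrays (0.939, against 0.957 to 0.960). The 3' to 5' differences of the Gapdh probe sets, a sign of RNA quality, overlapped between SSC (0.35 to 0.44) and Thy (0.39 to 0.56).

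The comparison asks which genes set the skeletal stem cell sort apart from the Thy sort. Expression is given as log2 values as deposited, so that a difference of 1 is a doubling. Differences are those of a limma model of population and induction arm over all 12 arrays, ± the standard error, with p-values adjusted by Benjamini-Hochberg over the 12516 genes tested and a threshold of 0.05. The p-values measure only the spread between these samples, which were each taken from 1 numbered mouse. At this threshold 49 genes passed, which is 0.391% of those tested: 40 were higher in Thy (0.32%) and 9 higher in SSC (0.0719%). All 40 Thy-high genes and 5 of the SSC-high genes are protein-coding. In each of the 49 the SSC and Thy arrays did not overlap, which held for 950 of all genes (7.59%), and 2210 genes (17.7%) had an unadjusted p under 0.05. Over all genes the median difference SSC minus Thy was -0.09. In the same model 54 genes passed between SSC and CSP (0.431%) and 124 between CSP and Thy (0.991%), comparisons that share the SSC or the Thy arrays.

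**Figure D1:**
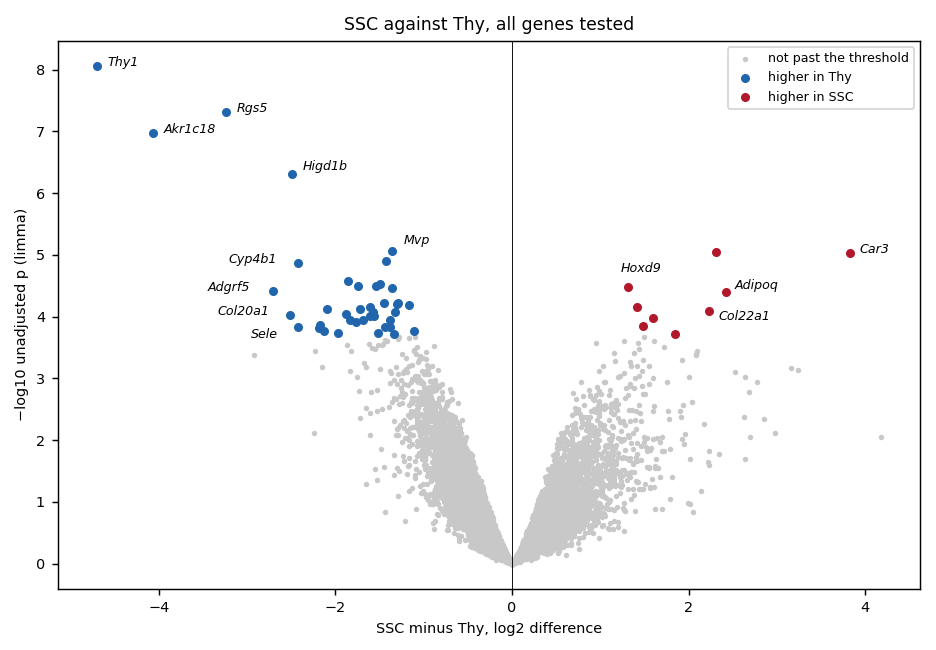
Each point is 1 of the 12516 genes tested, with the log2 difference SSC minus Thy (4 arrays against 4) on the horizontal axis and minus log10 of limma's unadjusted p on the vertical axis. The 40 coloured points at the left are higher in Thy, led by Thy1, Rgs5, Akr1c18 and Higd1b, and the 9 at the right are higher in SSC, with Car3 the farthest out.

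With the mouse as a block in a model of all 12 arrays, 4 genes passed (0.032%): Thy1, Akr1c18, Rgs5 and Higd1b. This model compares SSC and Thy within mice 3, 4 and 7, and the CSP arrays and mouse 3b add to it indirectly. The other 45 had an adjusted p between 0.0629 and 0.217 in the blocked limma model. Each array was then left out in turn. Among the uninduced arrays, dropping SSC replicate 3 gave 4 genes, SSC replicate 1 gave 10, Thy replicate 2 gave 8 and Thy replicate 1 gave 15. Among the induced arrays, dropping SSC replicate 2 gave 5, Thy replicate 1 gave 11, Thy replicate 2 gave 59 and SSC replicate 1 gave 304 (2.43%), the 49 among them. The same 4 genes passed without any 1 of the 8 arrays, while each of the other 45 passed in 1 to 6 of these 8 fits.

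Date and controls move with the populations. SSC replicate 1 with JUN is the only undated SSC array. Every SSC minus Thy value with the dated title as a covariate therefore rests, on the SSC side, on that array. With a dated title as a covariate 10 genes passed (0.0799%), among them Thy1, Akr1c18, Rgs5, Ackr1 and Col22a1 of the 49. With the mean of the poly-A controls as a covariate limma called 0 genes, with 777 at an unadjusted p under 0.05 and a lowest adjusted p of 0.0801. In that model all 49 kept their sign and 44 kept at least 50% of their difference. The exceptions were Col20a1, Cyp27a1, Lyz1, Gpr17 and Tubb4a, and Col20a1 was also the exception with the dated title as a covariate. SSC replicate 1 with JUN also had the SSC poly-A mean nearest to Thy, at 11.24 against 8.47 to 9.95 in the other SSC arrays. How far the values with this covariate, for genes or lists, rest on that array was not tested. The part of the controls in these results was not tested beyond this covariate.

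**Figure D2:**
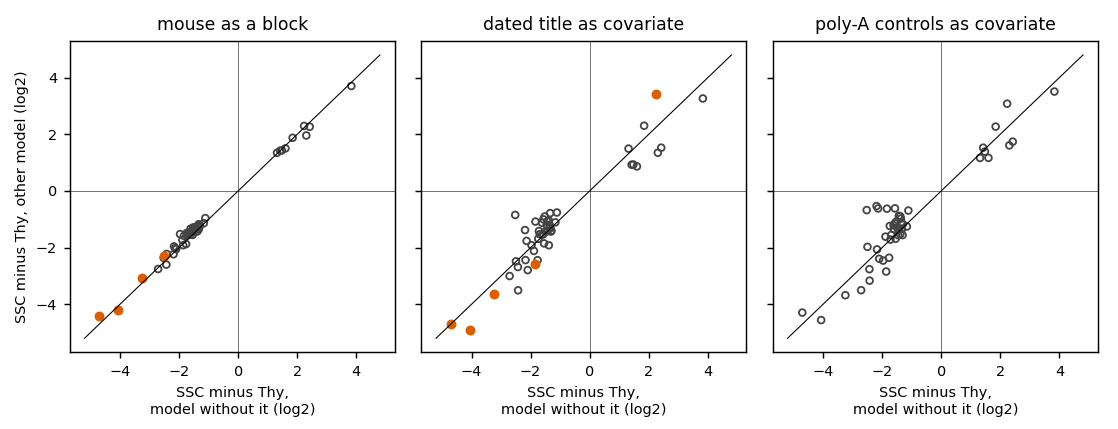
For the 49 genes past the threshold, the log2 difference SSC minus Thy under another model (vertical axis) is plotted against that without the added term (horizontal axis), and the diagonal marks equal values. Filled points passed the threshold under the other model too: 4 with the mouse as a block, 5 with the dated title and 0 with the poly-A controls. All points lie on the same side of 0 on both axes.

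The sort markers come first. Thy1, the glycoprotein that names the Thy population, stood at 8.31, 7.28, 8.62 and 8.90 in the SSC arrays and at 12.80, 12.99, 13.30 and 12.83 in the Thy arrays, and every Thy array lay above every SSC array. The difference was 4.70 ± 0.34 in favour of Thy (26.0-fold, adjusted p = 0.000108, and 0.0014 with the mouse as a block). CSP stood at 8.47 ± 0.78 (mean ± SD, n = 4), near SSC. Endoglin, a co-receptor for TGF-beta family ligands, stood at 8.14, 7.95, 8.04 and 8.24 in SSC and at 9.07, 9.53, 10.24 and 9.69 in Thy. The SSC arrays were close together and all below Thy, with a difference of 1.54 ± 0.24 (limma, adjusted p = 0.0287). Here CSP stood at 9.66 ± 0.50, at the level of Thy. Of the other markers used in such schemes, Itgav, the integrin alpha V chain, differed by 0.62 ± 0.27, Cd200 by 0.46 ± 0.46 and Enpep, which encodes the 6C3 antigen, by 0.11 ± 0.32 (SSC minus Thy, adjusted p = 0.265, 0.594 and 0.865 in limma). Their SSC and Thy arrays overlapped.

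Genes of the cell types that such gates remove differed in level. Ptprc, which encodes the leukocyte antigen CD45, averaged 5.81 in SSC and 6.01 in Thy, under the array medians of 7.65 to 7.76. All 6 measured erythroid genes lay below the median in each of the 8 arrays. Tek, which encodes the endothelial receptor Tie2, did not: it was above the median in all 8 arrays, at a mean of 9.64 in SSC and 9.95 in Thy. Of 17 endothelial genes 4 were above the median in all 8 arrays and 6 in none, of 16 leukocyte genes 1 and 9, and of 9 neutrophil genes 0 and 4.

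Of 12 pericyte genes, 3 passed, all higher in Thy. Pericytes are the contractile cells that wrap small vessels, and they share features with stromal progenitors. All 12 genes of a pericyte list were measured and tested, all 12 had the higher mean in Thy, and the 3 past the threshold compare with 0.32% of all genes in that direction. The median difference SSC minus Thy of the list was -1.27, against -0.09 over all genes, and in 7 of the 12 the arrays did not overlap, against 5.18% of all genes on the Thy-high side. The mean of the list was 9.67 to 10.05 in SSC, 10.95 to 11.59 in Thy and 10.00 to 10.12 in CSP. In such sorted bulk samples fewer cells of a type and less RNA per cell cannot be told apart.

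Rgs5, a regulator of G protein signalling widely used as a pericyte marker, stood at 10.97, 10.81, 10.13 and 10.95 in SSC and at 13.70, 14.52, 13.82 and 13.79 in Thy, 9.47-fold higher (3.24 ± 0.27, adjusted p = 0.0003, and 0.00528 with the mouse as a block). The lowest Thy array lay 2.73 above the highest SSC array. The 3 other Rgs5 probe sets kept by the filter differed by -3.42, -3.48 and -3.99. Higd1b, a mitochondrial protein gene active in pericytes, stood at 6.23, 5.71, 6.43 and 6.75 in SSC and at 8.88, 8.81, 9.15 and 8.27 in Thy (2.50 ± 0.26, adjusted p = 0.00154, and 0.0363 with the block). SSC and CSP lay below the array medians throughout and Thy above them, so Higd1b passed the filter on dim probe sets only through the Thy arrays, where it is high. Notch3, the Notch receptor of mural cells, stood at 8.59, 8.01, 8.52 and 8.04 in SSC and at 9.47, 10.41, 10.61 and 9.52 in Thy (1.72 ± 0.29, adjusted p = 0.0379, and 0.133 with the block). Its Thy arrays fell into a lower pair (mice 3 and 7) and a higher pair (mice 3b and 4), both above SSC.

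The 250 bases before the starts of Rgs5 and Notch3 are shown because these pericyte genes differ together, 5′ to 3′ on the strand of the gene, from RefSeq (build GRCm38.p6). Capitals mark a CCAAT box, the motif bound by the factor NF-Y, on either strand (ATTGG on the minus strand).

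Rgs5 (chr1:169655251-169655500, plus strand): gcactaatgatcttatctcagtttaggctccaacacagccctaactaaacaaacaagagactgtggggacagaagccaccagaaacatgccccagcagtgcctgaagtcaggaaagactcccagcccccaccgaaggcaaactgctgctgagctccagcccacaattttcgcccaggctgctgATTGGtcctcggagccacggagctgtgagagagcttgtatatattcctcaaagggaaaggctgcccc

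Notch3 (chr17:32166891-32167140, minus strand): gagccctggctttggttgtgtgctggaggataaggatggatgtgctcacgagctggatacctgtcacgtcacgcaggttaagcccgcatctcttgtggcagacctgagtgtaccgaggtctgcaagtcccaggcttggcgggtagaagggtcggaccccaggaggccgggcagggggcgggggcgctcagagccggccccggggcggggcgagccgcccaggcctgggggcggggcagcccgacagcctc

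The Rgs5 sequence holds 1 CCAAT box, at position -67 from the start on the minus strand. The Notch3 sequence holds no match and is 68.8% G and C, against 53.6% for Rgs5.

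The other 9 pericyte genes did not pass. Of these, Kcnj8 and Abcc9, the subunits of a potassium channel of mural cells, differed by -1.84 ± 0.41 and -1.53 ± 0.42 (adjusted p = 0.0809 and 0.127 in limma). The aminopeptidase gene Anpep and the PDGF receptor gene Pdgfrb differed by -1.22 ± 0.31 and -1.33 ± 0.34 (adjusted p = 0.107 and 0.11). The arrays did not overlap in any of these 4. Cspg4, which encodes the NG2 proteoglycan of pericytes and cartilage, had the smallest difference of the list at -0.22 ± 0.46, and SSC replicate 1 with JUN was its brightest array at 13.03. Without that array 6 of the 12 passed, with Pdgfrb at -1.53, Kcnj8 at -1.40 and Mcam at -1.22 beside the 3 named above. Calls rose over all genes in that fit, with 224 of 12516 past the threshold on the Thy-high side, against 40 with all arrays. In the smooth muscle list, which shares the contractile genes, 8 of 13 were higher in Thy and the median was -0.06. Des alone passed there, against 0.32% of all genes on the Thy-high side. This gene of the intermediate filament desmin stood at 8.61, 8.18, 8.86 and 9.03 in SSC and 9.61, 9.82, 10.42 and 10.02 in Thy (1.30 ± 0.22, adjusted p = 0.0379). The nearest SSC and Thy arrays were 0.59 apart. Cnn1, a calponin gene, stood the other way at 1.15 ± 0.24 (adjusted p = 0.0619) and passed without SSC replicate 1 with JUN, at 1.13. Acta2, smooth muscle actin, stood at -0.06 ± 0.22 with overlap.

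**Figure D3:**
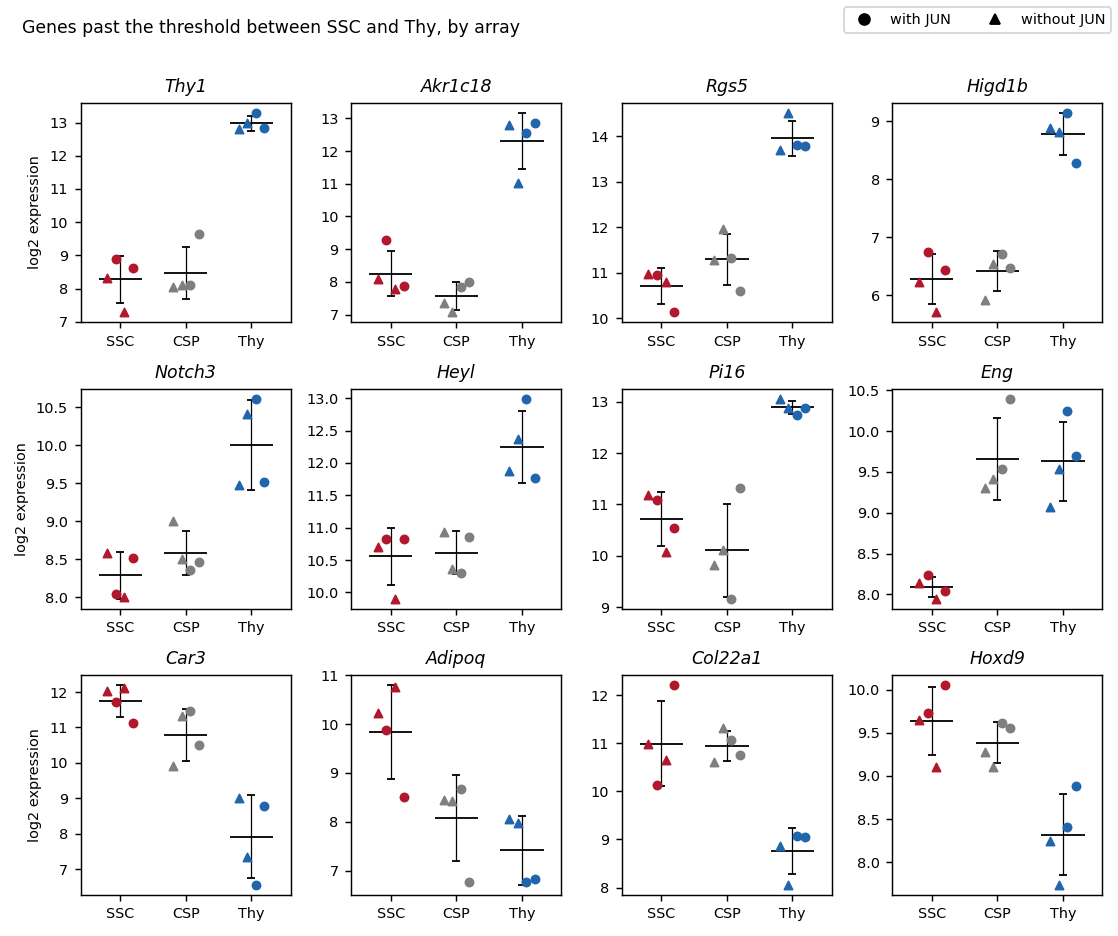
Log2 expression by array for 12 genes past the threshold (vertical axes differ between panels), with circles for arrays with JUN, triangles for arrays without, a horizontal line for the mean of 4 arrays and whiskers for the SD. Each Thy array lies above each SSC array for the genes from Thy1 to Eng and below for Car3, Adipoq, Col22a1 and Hoxd9, while CSP sits near SSC for Rgs5, Notch3 and Heyl and near Thy for Eng.

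Heyl, a transcriptional repressor induced by Notch signalling, was higher in Thy as well, although it belongs to the Notch list and not to the pericyte list. It stood at 10.69, 9.90, 10.82 and 10.82 in SSC and at 11.88, 12.37, 12.99 and 11.76 in Thy (1.69 ± 0.30, adjusted p = 0.0401). SSC replicate 3 of the arm without JUN was the lowest array and Thy replicate 1 with JUN the highest. Other Heyl probe sets differed by -1.28, with overlap, and by -1.89, without. With the mean of its probe sets Heyl did not pass, at -1.62 (SSC minus Thy). Heyl was the only gene of the 13 tested in the Notch list to pass, against 0.32% of all genes on the Thy-high side. That list does not hold Notch3, which passed as a pericyte gene. Of the 13, 9 were higher in Thy, and the list median was -0.26. The median was 0.03 with the poly-A controls and 0.16 with the dated title as a covariate. The ligand gene Jag1 and the target gene Hes1 stood at -0.59 ± 0.23 and -0.49 ± 0.22 (adjusted p = 0.218 and 0.269), with overlapping arrays.

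Sele, the endothelial selectin that captures leukocytes, stood at 8.59, 8.66, 7.61 and 9.61 in SSC and at 10.31, 11.996, 11.21 and 10.64 in Thy (2.42 ± 0.45, adjusted p = 0.0447, and 0.14 with the block). Its SSC arrays spread over 2.01, and CSP was at 10.67 ± 0.48, near Thy. Esam, an adhesion molecule of endothelial junctions, stood at 8.35, 7.72, 8.47 and 8.30 in SSC and at 9.89, 9.91, 9.69 and 9.77 in Thy (1.61 ± 0.28, adjusted p = 0.0379), with the 4 Thy arrays within 0.22 of each other. Ackr1, a receptor that binds chemokines without signalling through G proteins, stood at 9.74, 9.08, 8.23 and 9.23 in SSC and at 11.11, 10.63, 11.01 and 10.96 in Thy (1.86 ± 0.28, adjusted p = 0.0287). Also past the threshold were Procr, the receptor of protein C, at 1.61 ± 0.27, the connexin gene Gja4 at 1.74 ± 0.27, the adhesion receptor gene Adgrf5 at 2.71 ± 0.43 and the angiotensin-converting enzyme gene Ace at 1.42 ± 0.20 (adjusted p = 0.0379, 0.0287, 0.0296 and 0.0185 in limma). For Adgrf5 the SSC arrays stood at 7.18, 7.06, 7.05 and 7.56 and the Thy arrays at 9.06, 10.02, 10.58 and 10.02, all SSC values below the array medians.

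Of 17 endothelial marker genes measured, 6 (Emcn, Robo4, Plvap, Vwf, Sox17 and Sox18) lay above the array median in none of the 8 arrays and were not tested. Of the 11 tested 9 were higher in Thy, with a median of -0.71, and 2 passed (0.32% of all genes did on that side): Esam and the sort marker Eng. As Eng is a check of the labels, Esam alone is left as a result of this list. Tie1, among the 9, reached the filter on dim probe sets only with the Thy arrays, where it is higher (mean 7.23, against 5.97 in SSC). The median was -0.62, -0.45 and -1.45 within mice 3, 4 and 7 and -1.34 with the poly-A controls as a covariate. The list mean was 7.78 to 8.13 in SSC, 8.33 to 9.09 in Thy and 8.64 to 9.25 in CSP. Pecam1, the platelet and endothelial adhesion molecule, averaged 6.91 in SSC and 7.62 in Thy with overlap, and Cdh5, the cadherin of endothelial junctions, averaged 8.70 and 8.77, also with overlap. The part of endothelial RNA in the values of Sele, Esam and Eng was not tested.

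Of 17 fibroblast genes measured and tested, 1 passed, on the Thy side, against 0.32% of all genes. The mean was higher in Thy for 16 of the 17, against 57.7% of all genes, and the median was -0.48, which was -0.76 with the poly-A controls as a covariate. The arrays did not overlap in 7 of the 17, against 5.18% of all genes on the Thy-high side. Pi16, a peptidase inhibitor gene that marks a widespread fibroblast population, stood at 11.19, 10.07, 10.53 and 11.09 in SSC and at 13.06, 12.87, 12.75 and 12.89 in Thy (2.17 ± 0.40, adjusted p = 0.0447, and 0.114 with the block). The Thy arrays spread over 0.31 and the SSC arrays over 1.12. With the mean of its probe sets Pi16 did not pass, at -1.81 (SSC minus Thy). Members without overlap that did not pass include Igfbp6, an IGF-binding protein gene (-0.91 ± 0.22, adjusted p = 0.0989), the actin-severing gelsolin gene Gsn (-0.74 ± 0.23, adjusted p = 0.162) and the progenitor antigen gene Cd34 (-0.55 ± 0.19, adjusted p = 0.186). The protease gene Dpp4, which marks overlapping fibroblasts, stood at -1.18 ± 0.47 with overlapping arrays.

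Akr1c18 had the largest difference after Thy1. It encodes a hydroxysteroid dehydrogenase that inactivates progesterone. It stood at 8.08, 7.77, 7.87 and 9.28 in SSC and at 12.80, 11.03, 12.56 and 12.86 in Thy, 16.7-fold higher (4.06 ± 0.37, adjusted p = 0.000446, and 0.0014 with the block). Even the lowest Thy array, replicate 2 of the arm without JUN, lay above the highest SSC array by 1.75, and CSP was at 7.56 ± 0.43. Cyp4b1 encodes a cytochrome P450 and stood at 6.50, 6.09, 5.93 and 5.82 in SSC and at 8.33, 7.85, 9.51 and 8.37 in Thy (2.43 ± 0.35, adjusted p = 0.0185, and 0.1 with the block). All SSC values lay below the array medians, and only the Thy arrays carried it past the filter. Cyp27a1, the sterol hydroxylase, stood at 5.55, 5.80, 7.76 and 6.44 in SSC and at 8.70, 7.77, 9.35 and 8.48 in Thy (2.19 ± 0.40, adjusted p = 0.0447). SSC replicate 1 with JUN came within 0.01 of the lowest Thy array, and the difference was -0.53 (SSC minus Thy) with the poly-A controls as a covariate. This Cyp27a1 probe set can bind other transcripts, and a probe set left out by the filter differed by -0.47 with overlap.

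Col20a1, a collagen gene, stood at 8.50, 9.00, 10.89 and 8.79 in SSC and at 12.12, 12.11, 11.83 and 11.20 in Thy (2.52 ± 0.44, adjusted p = 0.0379). SSC replicate 1 with JUN was again the SSC array nearest to Thy, and the difference was -0.68 (SSC minus Thy) with the poly-A controls as a covariate. Wnt2 encodes a secreted Wnt ligand and stood at 9.49, 8.41, 8.31 and 9.29 in SSC and at 11.38, 10.48, 11.02 and 11.02 in Thy (2.10 ± 0.36, adjusted p = 0.0379). It was the only gene to pass among 34 Wnt ligands, receptors and inhibitors tested, against 0.32% of all genes on the Thy-high side. Of the 34, 17 were higher and 17 lower in SSC, with a median of -0.03. Lyz1, a lysozyme gene, stood at 7.10, 7.72, 8.38 and 8.10 in SSC and at 10.32, 9.88, 9.94 and 9.71 in Thy (2.14 ± 0.40, adjusted p = 0.048). Its probe set can bind other transcripts, and the near-identical Lyz2 differed by -0.91 ± 0.26 without passing (adjusted p = 0.141), so the assignment to Lyz1 is uncertain. The difference of Lyz1 was -0.62 (SSC minus Thy) with the poly-A controls. Its CSP arrays stood at 9.40 ± 0.97, nearer to Thy than to SSC.

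Neutrophil and leukocyte genes stood beside Lyz1. Of 9 neutrophil genes measured 4 were tested, all 4 were higher in Thy, 0 passed and the median was -1.11. The granule gene Camp differed by -1.28 ± 0.25 and S100a9, a calprotectin subunit, by -1.07 ± 0.25 (adjusted p = 0.0514 and 0.0884 in limma). The mean of the 4 was 6.87 to 7.41 in SSC, 7.59 to 8.42 in Thy and 7.28 to 8.49 in CSP. These values lie around the array median, while the defining genes Elane and Mpo lay above the median in no array. Of 16 leukocyte genes 7 were tested, 6 of them higher in Thy, with 0 past the threshold and a median of -0.39, which was -0.01 with the poly-A controls as a covariate. Among the 6, Coro1a passed the filter on dim probe sets only through Thy arrays, where it is high (mean 7.96, against 6.83 in SSC). Fcer1g passed that filter with 1 Thy and 1 CSP array.

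The remaining Thy-high genes differed by 1.11 to 1.97 and fall into several roles. Calcium handling is represented by the pump gene Atp2a3 (6.78 to 8.44 in SSC, 9.07 to 9.91 in Thy) and the calcium store gene Casq2 (7.99 to 8.40 and 8.97 to 9.92). Small GTPase signalling has Rasgrp2, Rasl12, Arhgdib and Arhgef16, at 1.89, 1.52, 1.43 and 1.11 higher in Thy. Cytoskeletal genes are Dbn1, an actin-binding drebrin, Tubb4a, a tubulin, and Septin4, at 1.57, 1.57 and 1.49. Extracellular proteases and relatives are Adamts16 and Adamtsl5 at 1.34 and 1.38. Receptors and adhesion molecules are Gpr17, Cadm3 and the receptor tyrosine kinase gene Mst1r at 1.84, 1.76 and 1.16. Enzymes are Xdh of purine breakdown, the sulfite oxidase gene Suox, the phosphodiesterase gene Pde2a and the necroptosis kinase gene Ripk3, at 1.31, 1.39, 1.33 and 1.37, and Mvp, the major vault protein gene, stood at 1.36. Their adjusted p lay between 0.0165 (Mvp) and 0.049 (Atp2a3) in limma, and none passed with the mouse as a block. The probe sets of Rasgrp2 and Mvp can bind other transcripts. Rasgrp2 and Suox reached the 2 arrays that the filter on dim probe sets asks for only through the Thy arrays, where they are high. A second probe set of Rasgrp2 differed by -0.63 and one of Adamts16 by -0.24, both with overlap. With the mean of its probe sets neither gene passed (SSC minus Thy -1.26 and -0.79). Cadm3 did not pass with that mean either, at -1.98.

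Genes higher in SSC were fewer. Car3, a carbonic anhydrase abundant in fat and slow muscle, stood at 12.04, 12.10, 11.11 and 11.73 in SSC and at 8.99, 7.33, 6.56 and 8.79 in Thy, 14.2-fold higher in SSC (3.83 ± 0.53, adjusted p = 0.0165, and 0.113 with the block). The 4 Thy arrays spread over 2.44 but stayed below SSC, and CSP was at 10.80 ± 0.73. Adipoq, the adipocyte hormone adiponectin, which stromal cells of bone marrow also express, stood at 10.22, 10.76, 8.50 and 9.87 in SSC and at 8.07, 7.98, 6.78 and 6.84 in Thy (2.42 ± 0.39, adjusted p = 0.0296, and 0.137 with the block). SSC replicate 1 with JUN was the lowest SSC array and came within 0.44 of Thy. No other gene of the adipocyte and reticular stroma list passed, and 0.0719% of all genes passed on the SSC-high side. Of 18 tested 10 were higher in SSC and the list median was 0.06. The fatty acid carrier gene Fabp4 stood at 1.20 ± 0.44 and the leptin receptor gene Lepr at 0.50 ± 0.25 (adjusted p = 0.207 and 0.32), both with overlap, while Vcam1 and Csf1, an adhesion molecule and a growth factor of marrow stroma, were on the Thy side at -0.61 ± 0.16 and -0.99 ± 0.26 (both adjusted p = 0.116).

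The 250 bases before the start of Adipoq are shown beside those of the pericyte genes (RefSeq, GRCm38.p6). Capitals mark CCAAT and TGGGAA, the core bound by the Notch partner RBPJ, on either strand.

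Adipoq (chr16:23146286-23146535, plus strand): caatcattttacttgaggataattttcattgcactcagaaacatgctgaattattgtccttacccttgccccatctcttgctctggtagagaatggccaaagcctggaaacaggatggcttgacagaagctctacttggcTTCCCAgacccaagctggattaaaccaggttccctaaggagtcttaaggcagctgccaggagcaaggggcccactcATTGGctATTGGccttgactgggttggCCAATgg

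The sequence holds 3 CCAAT matches close to the start and 1 TGGGAA match at position -110, on the minus strand.

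Col22a1, a collagen of tissue junctions, stood at 10.98, 10.64, 12.21 and 10.14 in SSC and at 8.86, 8.06, 9.08 and 9.05 in Thy (2.23 ± 0.38, adjusted p = 0.0379, and 0.113 with the block). A second probe set differed by 2.77 the same way, and one more, a dim one, by -0.11. Of 18 collagen genes outside cartilage 13 were higher in Thy, with a median of -0.27. Col22a1 was the one member past the threshold, against 0.0719% of all genes on the SSC-high side. That list does not hold Col20a1, which passed on the Thy side. The list median was 0.01, -0.01 and -0.28 within mice 3, 4 and 7 and 0.12 with the dated title as a covariate. Among them Col18a1 and Col4a2, chains of basement membranes, stood at -1.26 ± 0.32 and -1.04 ± 0.27 (adjusted p = 0.11 and 0.116). Both passed without SSC replicate 1 with JUN, at -1.57 and -1.23. Hoxd9, a homeobox gene of limb and trunk position, stood at 9.64, 9.10, 10.05 and 9.73 in SSC and at 8.25, 7.74, 8.40 and 8.88 in Thy (1.31 ± 0.21, adjusted p = 0.0287, and 0.113 with the block). The nearest arrays were 0.22 apart. Of 24 Hox genes tested 11 were higher in SSC and the median was -0.04. No other Hox gene passed, and 0.0719% of all genes passed on the SSC-high side. Hoxd10 stood at 1.95 ± 0.62, Hoxd3 at -1.31 ± 0.34 and Hoxb4 at -0.93 ± 0.23 (adjusted p = 0.162, 0.112 and 0.104). Mtm1, a phosphoinositide phosphatase gene, stood at 10.24, 10.94, 9.54 and 10.56 in SSC and at 9.01, 9.23, 8.84 and 8.28 in Thy (1.48 ± 0.27, adjusted p = 0.0447). Its 2 other probe sets overlapped between the populations, at 0.64 and -0.18, and with the mean of its probe sets it did not pass, at 0.65. The other 4 SSC-high genes are not protein-coding and are counted only.

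The sequence upstream of the starts was read for 4 short motifs, because AP-1 holds the induced subunit and Notch genes are among those past the threshold. RefSeq promoters (build GRCm38.p6, 1 start a gene, the 250 bases before the start) matched 10077 of the genes tested, 33 of the 40 Thy-high genes and 6 of the SSC-high genes. The AP-1 motif TGANTCA, which reads the same on both strands, was present in 415 of the 10077 (4.12%), in 5 of the 33 (15.2%) and in 1 of the 6. These 6 sites are shown with the bases around them, 5′ to 3′ on the strand of the gene, with the motif in capitals.

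Cyp4b1 (chr4:115647860-115647914, minus strand, motif 169 bases before the start): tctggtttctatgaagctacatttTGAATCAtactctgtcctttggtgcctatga

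Sele (chr1:164048137-164048191, plus strand, motif 73 bases before the start): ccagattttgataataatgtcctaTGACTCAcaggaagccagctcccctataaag

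Cadm3 (chr1:173367851-173367905, minus strand, motif 186 bases before the start): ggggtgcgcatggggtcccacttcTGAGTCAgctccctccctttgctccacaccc

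Procr (chr2:155751039-155751093, plus strand, motif 154 bases before the start): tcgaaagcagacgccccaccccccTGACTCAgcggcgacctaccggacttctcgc

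Mvp (chr7:127014676-127014730, minus strand, motif 112 bases before the start): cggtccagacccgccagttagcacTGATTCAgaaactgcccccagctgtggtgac

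Mtm1 (chrX:71210581-71210635, plus strand, motif 162 bases before the start): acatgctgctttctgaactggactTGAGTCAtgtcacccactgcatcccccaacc

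Cyp4b1, Sele, Cadm3, Procr and Mvp are higher in Thy by the values given above, and Mtm1 is higher in SSC. The match describes these windows and was not tested as a binding site. The motif TGGGAA was in 2048 of the 10077 on either strand (20.3%), in 7 of the 33 (21.2%) and in 4 of the 6. It was in neither Rgs5 nor Notch3. CCAAT was in 3644 (36.2%) on either strand, in 6 of the 33 (18.2%) and in 2 of the 6. The CArG motif of the smooth muscle factor SRF was in 123 (1.22%) and in 0 of the 33 and 0 of the 6.

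Cartilage matrix genes had the largest median shift to SSC among the 39 lists with genes tested, and none passed. Of 21 tested 19 were higher in SSC, with a median of 1.62, which was 3.62 with the poly-A controls and 3.73 with the dated title as a covariate. On the SSC side the fit with the dated title rests on SSC replicate 1 with JUN. That array also had the SSC poly-A mean nearest to Thy (11.24), so these 2 values are not independent of each other. The arrays did not overlap in 8 of the 21, against 2.41% of all genes on the SSC-high side. Col10a1, the collagen of hypertrophic chondrocytes, stood at 11.82, 11.14, 12.85 and 9.21 in SSC and at 6.85, 6.30, 6.86 and 8.28 in Thy (4.18 ± 1.35, adjusted p = 0.169). Every SSC array was above every Thy array, and the SSC arrays spread over 3.64. Col9a1, a fibril-associated collagen of cartilage, stood at 12.96, 11.91, 14.42 and 12.23 and 8.93, 11.17, 10.23 and 10.67 (2.63 ± 0.75, adjusted p = 0.136). Hapln1, the link protein of cartilage proteoglycan, and Matn3, a matrilin, differed by 2.86 ± 0.82 and 2.98 ± 0.93 (adjusted p = 0.138 and 0.162). Acan and Col2a1, the main proteoglycan and collagen of cartilage, overlapped at 0.58 ± 0.90 and 1.34 ± 0.58.

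The list mean shows how the arrays differ. It was 10.73, 10.04, 13.12 and 10.11 in SSC, 8.62 to 9.67 in Thy and between 9.65 and 13.11 in CSP. SSC replicate 1 with JUN alone reached the level of the bright CSP arrays. Without it the list median was 0.91, still with 0 members past the threshold, and without the others of the 8 arrays it was 1.46 to 2.11. Within mice 3, 4 and 7 the median was 2.06, 3.47 and 0.76. The regulators of chondrocytes followed less: 7 of 11 were higher in SSC, with a median of 0.29 and 0 called, and the median was -0.28 without SSC replicate 1 with JUN. Sox9, the master regulator of cartilage, stood at 0.53 ± 0.60 and the hedgehog ligand gene Ihh at 1.11 ± 0.61.

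**Figure D4:**
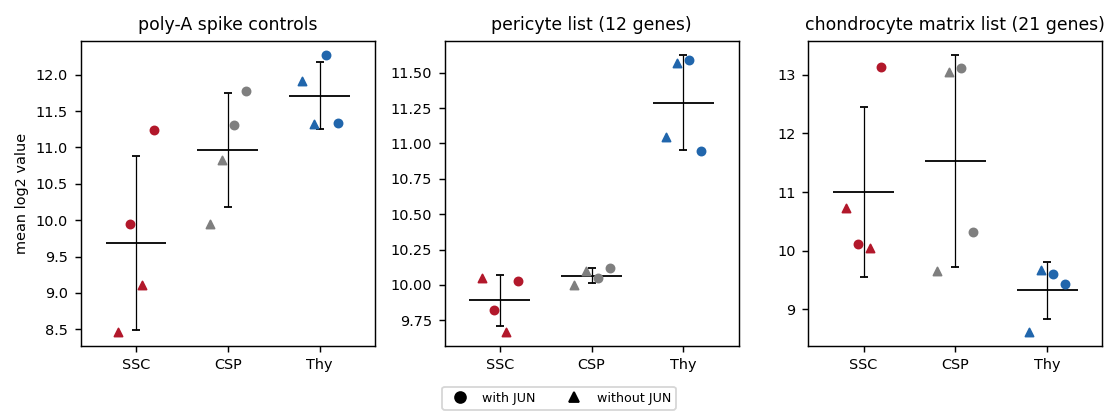
The mean log2 value of the poly-A spike controls, of the 12 pericyte genes and of the 21 chondrocyte matrix genes on each array, with circles for arrays with JUN, triangles for arrays without, lines for means of 4 arrays and whiskers for the SD. SSC lies below Thy for the controls and the pericyte genes and above it for the matrix genes, where SSC replicate 1 with JUN at 13.12 stands apart from the other SSC arrays at 10.04 to 10.73.

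Bone matrix and mineralisation genes split. Of 13 tested 6 were higher in SSC, 0 passed and the median was -0.11, which turned to 0.45 with the mouse as a block, 1.39 with the poly-A controls and 1.46 with the dated title, and was 0.32, 0.55 and 0.31 within mice 3, 4 and 7. The arrays of 4 members did not overlap, 3 on the SSC side, against 2.41% of all genes, and 1 on the Thy side, against 5.18%, the matrix protein gene Sparc at -0.22 ± 0.16. Dmp1, a matrix protein of osteocytes, stood at 9.96, 10.70, 12.03 and 10.61 in SSC and at 7.83, 7.29, 7.01 and 8.22 in Thy (3.24 ± 0.72, adjusted p = 0.0809). Phex, an endopeptidase of phosphate regulation in the same cells, stood at 9.27, 10.04, 8.80 and 8.51 and 6.27, 5.71, 4.79 and 7.23 (3.16 ± 0.70, adjusted p = 0.0788), and Ibsp, bone sialoprotein, at 12.72, 12.98, 12.77 and 12.44 and 10.74, 10.00, 9.94 and 9.13 (2.78 ± 0.65, adjusted p = 0.0904). The nearest arrays were 1.74, 1.29 and 1.70 apart. The collagenase gene Mmp13, made by hypertrophic chondrocytes and osteoblasts, differed by 2.64 ± 0.61 (adjusted p = 0.0884), also without overlap, while Col1a1, the main collagen of bone, stood at -0.33 ± 0.16 (adjusted p = 0.315).

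**Figure D5:**
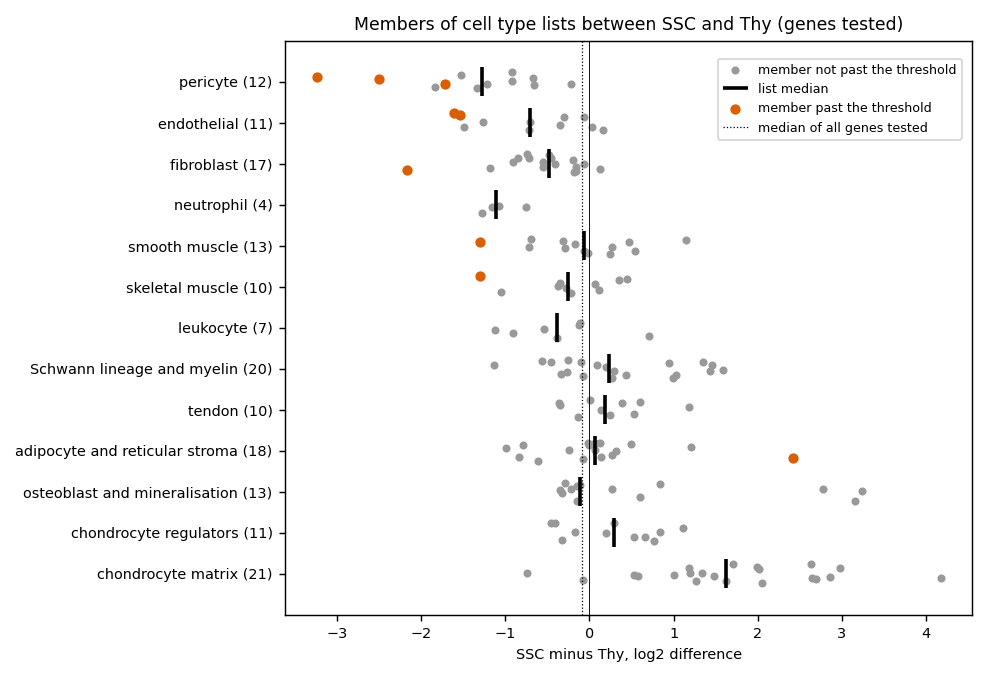
Each point is a gene tested from a cell type list, placed by its log2 difference SSC minus Thy, with larger filled orange points for members past the threshold, a bar for the list median and a dotted line for the median of all genes. The pericyte median is at -1.27 and the chondrocyte matrix median at 1.62, and the only member past the threshold on the SSC side is Adipoq.

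AP-1, the dimer of Jun, Fos and Atf family proteins, is the factor whose Jun subunit the study induces. Jun itself stood at 12.60, 12.06, 13.18 and 12.13 in SSC and at 12.81, 13.65, 13.03 and 12.90 in Thy (-0.61 ± 0.28, adjusted p = 0.286). SSC and Thy overlapped, and in both populations the arrays with and without JUN overlapped. The labels do not say if the transgene's transcript can bind this probe set. Of 16 AP-1 family genes tested 15 were higher in Thy, against 57.7% of all genes, and 0 passed. The median was -0.34, which was 0.07, 0.26 and -0.53 within mice 3, 4 and 7, -0.12 with the mouse as a block, 0.01 with the poly-A controls and 0.36 with the dated title. Junb stood at -1.36 ± 0.35 and Atf5 at -1.13 ± 0.25 (adjusted p = 0.116 and 0.0776), and both passed without SSC replicate 1 with JUN, at -1.75 and -1.26. All 18 immediate early genes outside AP-1 were higher in Thy, by up to 0.68, against 57.7% of all genes, with 0 called. Their median was -0.34, which was -0.08, 0.21 and -0.24 within mice 3, 4 and 7 and -0.12 with the mouse as a block. That median too turned, to 0.18 with the poly-A controls and 0.57 with the dated title.

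Whether the difference between SSC and Thy depends on JUN was tested as an interaction, with 2 arrays a group. In limma 0 genes passed (251 at an unadjusted p under 0.05, lowest adjusted p 0.876), and 0 passed in the models with a variance trend (211 unadjusted) or over the 8 arrays alone (234 unadjusted). With JUN 0 genes passed between SSC and Thy (694 unadjusted), and without JUN 1 did (1291 unadjusted, 0.00799%), Thy1 at an adjusted p of 0.0117. The variance trend called 2 in each arm, Thy1 and Rgs5. SSC minus Thy was -3.26 with JUN and -3.22 without for Rgs5, and 3.75 and 3.91 for Car3.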

How the data were processed

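Expression was measured with Affymetrix mouse arrays, 1 per sample. The deposited values are log2 expression per probe set after RMA, per the submitters' processing notes, which background-corrects, quantile-normalizes and summarizes the probes. Software and version: not given in the sources used here. Quantile normalization gives all arrays nearly the same distribution, so a change shared by most genes would not show. Of 45101 probe sets, 64 controls were left out, and 34945 had 1 gene symbol in the platform annotation, 932 several and 9160 none. Probe sets above the array median in at least 2 of the 12 arrays were kept, and the brightest on average stood for its gene, which gave 12516 genes.

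A model of population and induction arm was fitted to the 12 arrays with limma 3.58.1 (lmFit and eBayes, R 4.3.3), and p-values were adjusted by Benjamini-Hochberg over all genes tested. The code was tested on simulated data. Mouse numbers in the titles pair SSC and Thy, for mice 3 and 7 a dated SSC title with an undated Thy title. In these pairs, deviations from the model of population and induction arm correlated by -0.237, 0.242 and 0.406 for mice 3, 4 and 7. Beyond the mouse numbers and the dated titles, the labels name no litter, batch or preparation. Array number limits the precision. Members of the gene lists and the comparison itself were chosen with earlier results of these data known. Genes named were those past the threshold, with values on each array for the 12 largest differences in each direction and for called list members, up to 4 further members of lowest p in a list, the sort markers and Jun; Acan, Acta2, Cdh5, Col10a1, Col1a1, Col2a1, Cspg4, Dpp4, Lepr, Mcam, Sox9 and Sparc were added after their values were seen. Alternatives covered the arrays and terms in the model, the mouse, the variance model, the filter, the probe set of a gene, the scaling, and each array or mouse left out.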

Additional observations from a re-analysis of the deposited data

Results flagged for a closer look

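Within the 4 arrays of a population, 1 array stood far from the other 3 in 7 of 92 cases examined among the genes past the threshold (7.61%), and chance gives about 1 in 20 groups. Among the Thy arrays, replicate 2 of the arm without JUN was low for the steroid enzyme gene Akr1c18 at 11.03 and high for the pericyte gene Rgs5 at 14.52. Thy replicate 2 with JUN was low for the receptor gene Gpr17 at 8.78, and Thy replicate 1 with JUN was high for the connexin gene Gja4 at 10.70. Among the SSC arrays, replicate 3 of the arm without JUN was low for the Notch target gene Heyl at 9.90 and for the phosphodiesterase gene Pde2a at 7.78, and replicate 1 of that arm was high for the receptor kinase gene Mst1r at 8.55.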

How the results depend on the processing

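The count of 49 genes between SSC and Thy was 16 over the 8 arrays alone, 29 without the induction term, 8 with a mean for each of the 6 groups, 24 without the filter on dim probe sets, 75 with the mean of a gene's probe sets, 10 with the dated title as a covariate, 25 with the Xist level of the mouse and 0 with the poly-A controls. With the mouse as a fixed block, the paired analysis, it was 4, and as a random block 49. Leaving out 1 array at a time gave 4 to 304 genes. Leaving out mouse 10, 3, 3b, 4 or 7 gave 4, 3, 5, 85 and 10. A variance trend called 2 genes in the arm with JUN and 2 without, in place of 0 and 1. SSC against CSP called 54 genes and 8 with the block. The other settings kept the count within 1.5 times of 49, and no named gene past the threshold changed its direction under any setting run, which the lack of overlap fixes where arrays are only left out. Over genes and settings, 585 calls stayed past the threshold and 787 did not. The poly-A controls do not overlap between SSC and Thy and only SSC titles are dated, so neither can be fully told apart from the population. The interaction with JUN rests on 2 arrays a group, and the size of interaction that these would detect was not measured.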

Other observations

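Of 30 cell cycle genes tested 0 passed. The mean was lower in SSC for 24 of them, against 57.7% of all genes, with a median SSC minus Thy of -0.32, against -0.09 over all genes. The median was -0.60, -0.04 and -0.42 within mice 3, 4 and 7. The arrays did not overlap in 8 of the 30, against 5.18% of all genes on the Thy-high side. The mitotic kinase gene Aurkb stood at -0.92 ± 0.22 (limma, adjusted p = 0.0904), and the replication licensing genes Mcm2, Mcm3 and Mcm7 at -0.84 ± 0.22, -0.94 ± 0.25 and -0.56 ± 0.16. Of 20 patterning factors of the skeleton 8 were higher in SSC and 0 passed. Zic1, a zinc finger factor of axial position, stood at 1.76 ± 0.41 and Twist2, a repressor in mesenchyme, at -1.05 ± 0.25 (both adjusted p = 0.0904 in limma), and neither overlapped.

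Of 26 BMP genes 12 were higher in SSC, with a median of -0.12 that was 0.13, 0.37 and 0.03 within mice 3, 4 and 7 and 0.26 with the dated title as a covariate. The receptor gene Bmpr1b stood at 1.07 ± 0.29 and the ligand gene Bmp4 at -0.65 ± 0.24, both without overlap. The FGF list (17 tested) had a median of -0.29, the IGF list (12 tested) -0.24, TGF-beta (15 tested) -0.01 and Hedgehog (11 tested) 0.17, with 0 past the threshold in each. With the dated title as a covariate these medians were 0.02, 0.22, 0.29 and 0.48, so those of FGF, IGF and TGF-beta turned. In that fit SSC minus Thy rests on SSC replicate 1 with JUN. The IGF-binding protein gene Igfbp5 stood at -1.04 ± 0.27 (adjusted p = 0.11) and passed without SSC replicate 1 with JUN, at -1.21. Of 18 chemokines and cytokines 13 were lower in SSC, led by the monocyte attractant gene Ccl2 at -1.10 ± 0.21 (adjusted p = 0.0514), whose arrays did not overlap. Of 17 metalloproteinases and inhibitors 13 were lower, with a median of -0.44 that was -0.10 with the dated title, Mmp23 at -0.83 ± 0.20 and Timp3 at -0.57 ± 0.19. Among 20 Schwann lineage and myelin genes 12 were higher in SSC, with a median of 0.23 that was -1.04, 0.87 and 0.45 within mice 3, 4 and 7 and 1.15 with the poly-A controls as a covariate. The claudin gene Cldn19 stood at 1.46 ± 0.42 and Gap43, of growing axons, at -1.14 ± 0.30 (adjusted p = 0.141 and 0.116). Glycolysis genes had a median of -0.33, which was 0.19 with the poly-A controls as a covariate, and 21 respiratory chain genes had one of 0.07.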
